A study of Bos taurus with 17 samples.

Results

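The IL6 and LIF family signalling genes were followed at 3 stages in the cumulus cells of the cow, which surround the oocyte and feed it. The family was taken as 10 genes: the ligands IL6 and LIF, the receptor chains LIFR, IL6R, IL6ST and OSMR, the kinase JAK2, the transcription factor STAT3, and the feedback inhibitors SOCS2 and SOCS3. Of the 21475 probes of the array, 12 measured these genes. A probe was taken where its gene name was one of the 10 symbols, or where its description named the gene and its gene name was a LOC number, which gave 9 probes. The remaining 3 probes, of LIFR, OSMR and STAT3, bear an EST accession as gene name and were read by their description in the same way. LIFR and STAT3 had 2 probes each. RNA of IL6ST and STAT3 was more abundant in the expanded C2 cumulus than in the compact C1 cumulus. IL6 RNA was detected above background in 4 of 5 samples at C2 and in 5 of 6 at NC1, but in 1 of 6 at C1.

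Cytokines of this family signal through a shared receptor chain, gp130, which is the product of IL6ST. IL6 binds IL6R and the pair recruits gp130, LIF binds LIFR paired with gp130, and oncostatin M can bind OSMR paired with gp130. Kinases of the JAK family, bound to gp130, then phosphorylate STAT3, which enters the nucleus and activates target genes, among them SOCS3, which in turn blocks the receptor. In the ovary, cumulus cells make IL6-type cytokines around ovulation, when the cumulus expands by laying down a hyaluronan-rich matrix.

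NC1 cells came from 6 prepubertal calves aged 3 to 6 months, C1 cells from 6 adult cows of various ages, and C2 cells from 5 non-lactating Holstein cows aged 3 to 5 years. NC1 and C1 complexes had a compact cumulus around an immature prophase I oocyte, and were aspirated from ovaries after slaughter. C2 complexes had an expanded cumulus around a metaphase II oocyte and were collected in the living animal by ovum pick-up, after a progestagen implant, superovulation with an FSH/LH preparation and prostaglandin. In the sample labels, oocytes are developmentally incompetent at NC1, competent at C1 and fully competent at C2. NC1 and C1 also differed in the age of the animals. C1 and C2 differed in hormone treatment, follicle type, mode of collection and source of the animals. NC1 and C2 differed in all of these, age included. None of them can be told apart from the stage. The same C2 arrays entered both comparisons with C2.

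Each of the 17 samples was hybridised to 1 single-colour Agilent array, on 6 slides scanned on 2 days. Between 66.2% and 82.8% of the probes were well above background on an array. Levels below are log2 scaled signals, where 0 is the median probe of the array and 1 unit is a doubling. They are compared between stages for 1 probe and never between probes. SD is the spread between arrays of a stage, and SE that of the fitted difference. C2 arrays differed more from each other than the others did. The SD of the log2 difference between 2 arrays lay between 0.431 and 0.694 within NC1, between 0.453 and 0.756 within C1, and between 0.444 and 1.27 within C2. Within C2, replicates 1 and 5 were close to each other, with 0.444, and so were replicates 3 and 4, with 0.512, while replicate 2 stood at 1.05 or more from every other one. Nothing in the labels says that any of these share an animal. Replicates 3 and 4 were scanned on one day and replicates 1, 2 and 5 on the other. Results that rest on these arrays are given with their values on each array.

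Of the marker lists, all 4 measured genes of the expanded cumulus list (HAS2, PTX3, TNFAIP6 and PTGS2) were up-regulated at C2 in comparison to C1, and 5 of 8 valid granulosa and cumulus genes were down-regulated. Of all valid probes, 28.1% changed between C2 and C1 by the threshold given below, and 15.3% were up-regulated. The summed scaled signal of the expanded cumulus list, in units of the array's median probe, was 9.67 to 30.8 at NC1, 3.67 to 55.9 at C1 and 541.0 to 1490.0 at C2. That of the granulosa and cumulus list was 3500.0 to 7910.0, 3480.0 to 5490.0 and 1220.0 to 5280.0, lowest on C2 replicates 1 and 5. Theca and stroma genes summed to 173.0 to 307.0, 198.0 to 306.0 and 301.0 to 604.0. In that list the mean log2 level of LUM was 3.73 at C1 and 7.52 at C2. COL1A1, COL1A2 and COL3A1 also had higher means at C2, and CYP17A1, INSL3, DCN, PDGFRA and ACTA2 lower ones. Endothelial genes, with CDH5 and EMCN above background on no array, summed to 1.31 to 2.81, 1.24 to 1.52 and 2.67 to 11.3. Of these, KDR and VWF had higher means at C2 than at C1, and PECAM1, TEK and TIE1 lower ones. Oocyte genes summed to 39.3 to 92.0 at NC1, 4.96 to 34.7 at C1 and 3.3 to 7.73 at C2, and red blood cell genes to 27.6 to 129.0, 72.4 to 258.0 and 2.18 to 51.1. The part of other cell types in the results was not tested, and in such bulk samples fewer cells of a type and less RNA per cell cannot be told apart.

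The probes on which the results turn are shown by the first 30 of their 60 bases, 5′ to 3′, as the deposited table gives them. The IL6 and IL6ST probes are shown because 4 of the 5 C2 arrays lay above all NC1 and C1 arrays for both genes, the pair for STAT3 because both were compared, and that for SOCS2 because it split the C2 arrays. No base is capitalised, since no single motif is compared.
IL6 A_73_107706: aatggctatgtggcttgaatgtccttattg
IL6ST A_73_117764: agttgatgaaggaatgcctaaaagttactt
STAT3 A_73_104691: cacagggtggtttgtgagatgctgtcctgg
STAT3 A_73_115616: cacactttcaaccttgctaacgtccagata
SOCS2 A_73_103888: agggggatacatgcctgcttttcaaagtgt
The longest run that the 2 full STAT3 probes share on either strand is 7 bases, so that they read different stretches of RNA. GC content was 35.0% for the IL6 and SOCS2 probes, 43.3% for the IL6ST probe, 45.0% for both STAT3 probes and 71.7% for the SOCS3 probe.

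Probes detected on 80% or more of a stage's arrays, for all 3 stages, were called valid. Valid probes were found for 8 of the 10 genes, and IL6 and LIF had none. In comparison to C1, 2 of these 8 genes, IL6ST and STAT3, were up-regulated at C2 and none was down-regulated, by limma with Benjamini-Hochberg adjustment over the 13865 valid probes and an adjusted p under 0.01. That is 25.0% of the genes, beside 28.1% of all valid probes, or 15.3% counting only those that were up-regulated. In comparison to NC1, STAT3 alone was up-regulated at C2, which is 12.5% of the genes beside 28.1% of all valid probes, or 15.5% counting only the up-regulated ones. Between C1 and NC1 none of the 8 genes passed, and none had an unadjusted p under 0.05. Over all valid probes 0.0577% passed between C1 and NC1. The median log2 difference of the 8 genes was 0.21 for C2 against C1, 0.07 for C2 against NC1 and -0.09 for C1 against NC1. Over all valid probes it was 0.02, 0.11 and 0.05. By the moderated F over the 3 stages 2 genes passed, STAT3 with an adjusted p of 0.000521 and IL6ST with 0.00907, beside 28.6% of all valid probes.

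**Figure D1:**
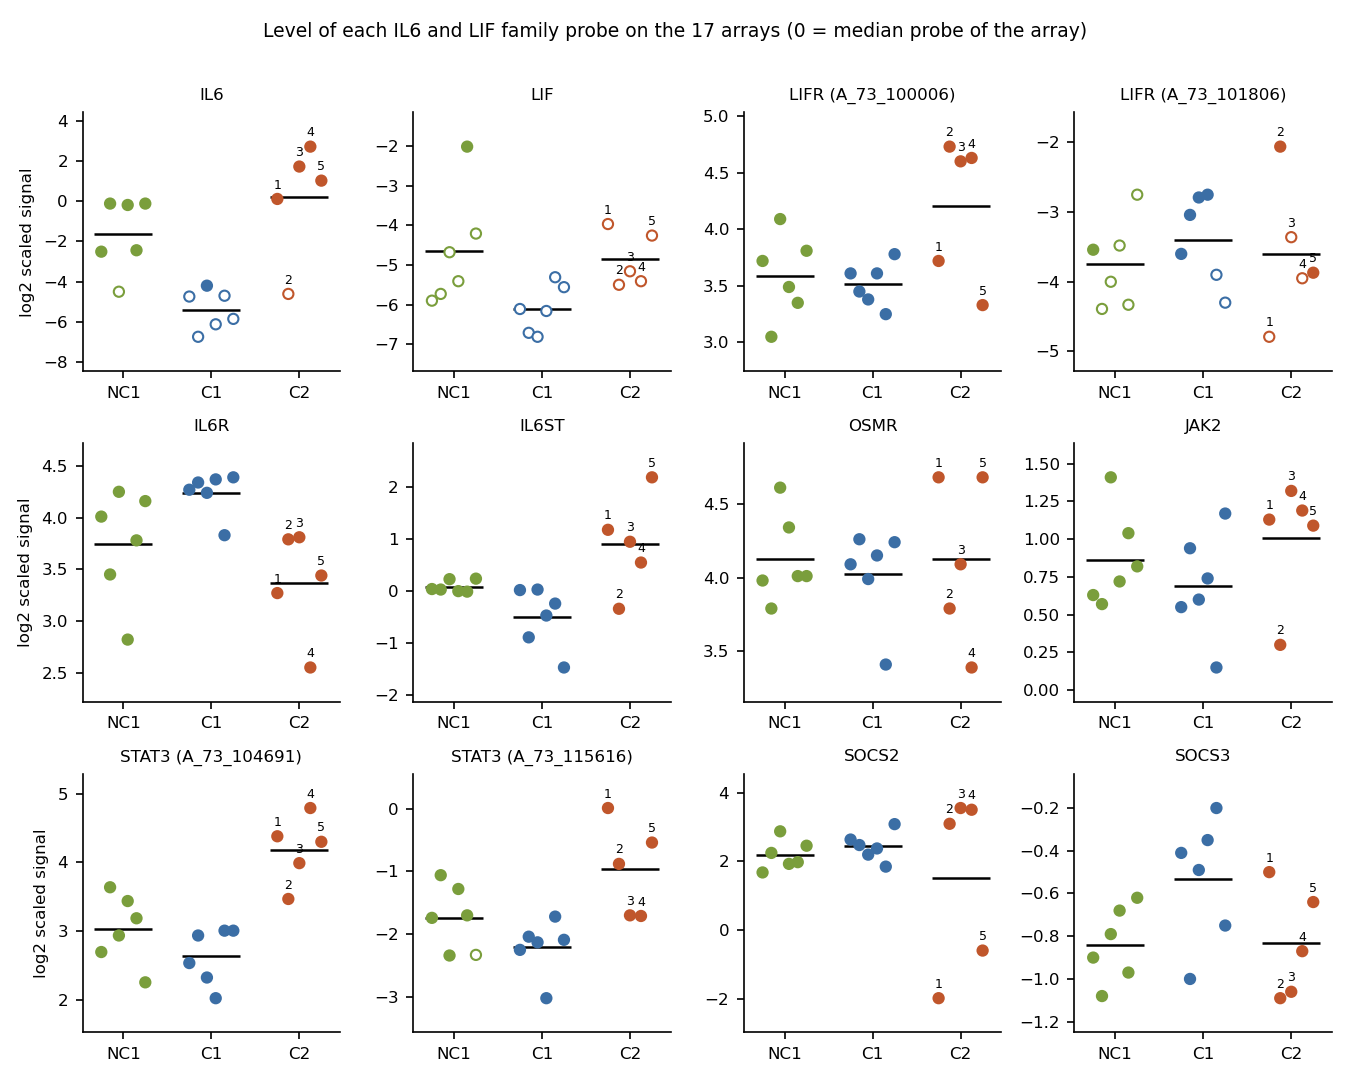
Log2 scaled signal (vertical axis, 0 is the array's median probe) of the 12 probes on each array of NC1, C1 and C2 (horizontal axis). Points are arrays, open where the probe was not well above background, lines are stage means, and numbers are the C2 replicates. IL6 lies near or below background on most C1 arrays, both STAT3 probes have every C2 array above every C1 array, and SOCS2 is low on C2 replicates 1 and 5 only.

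IL6 encodes the ligand that gave the family its name. On the C2 arrays its level was 0.11, -4.61, 1.72, 2.71 and 1.02 for replicates 1 to 5, and replicate 2 was not well above background. On the C1 arrays the lowest, median and highest levels were -6.74, -5.29 and -4.2, and 5 of the 6 arrays were not well above background. On the NC1 arrays they were -4.5, -1.32 and -0.12, with 5 of 6 arrays well above background. IL6 was thus detected on most calf and most C2 arrays, and 4 of the 5 C2 arrays lay above every C1 and every NC1 array, while C2 replicate 2 lay among the C1 arrays.

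As IL6 was not valid at C1, it was compared in the fit over all 21475 probes without a filter, where 21.2% of the probes passed for C2 against C1. There the C2 mean of 0.19 ± 2.85 (SD, n = 5) exceeded the C1 mean of -5.39 ± 0.99 (SD, n = 6) by 5.58 ± 1.06 (SE) on the log2 scale, with an adjusted p of 0.000484. As 5 of the 6 C1 arrays were at the background, this difference is not a measured fold. The 2-sided exact permutation test gave p = 0.00866, where 0.00433 is the smallest p that 5 arrays against 6 allow. With arrays that were not well above background set at the lowest signal that was, the difference was 4.44. C2 replicate 2 was raised in this way too, so that 4.44 is not a bound. C2 replicate 4 and C1 replicate 3 shared a slide and were both above background, at 2.71 and -4.2. On the other slides the C1 array was not above background, so that a detected C2 array is higher there by selection. On the slide of C2 replicate 2 neither array was, so that it gives no order. The stage means differed by 3.94 on the scan day that held C2 replicate 2 and by 7.91 on the other.

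Between C1 and NC1 the IL6 level differed by -3.74 ± 1.01 (SE). NC1 replicate 4 and C1 replicate 3 shared a slide and were both above background, at -0.19 and -4.2. On the other slides the C1 array was not above background, so that a detected NC1 array is higher there by selection. On the slide of NC1 replicate 3 neither array was above background. The adjusted p of 0.0442 in the fit without a filter did not pass, where 0.116% of the probes did. The exact permutation test gave p = 0.00433, against a smallest possible 0.00216 for 6 arrays against 6. With arrays at the background set at their limit, the difference was -2.71. NC1 replicate 3 was raised in this way too, so that -2.71 is not a bound. The 1.84 ± 1.06 (SE) by which the C2 mean exceeded that of NC1 did not pass, with an adjusted p of 0.209, but it was 3.04 with an adjusted p of 0.00684 without C2 replicate 2. The order of the means was C2, NC1 and C1, and C2 and NC1 as neighbours did not differ beyond their spread.

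The 12 genes of the leukocyte marker list summed to 7.12 on C2 replicate 2, and to 41.3, 20.0, 21.6 and 57.7 on replicates 1, 3, 4 and 5. The sum was 6.12 to 10.7 at C1 and 8.08 to 22.0 at NC1, where the array with the lowest sum, replicate 3, was the one without IL6 above background. In comparison to C1, 4 of the 9 valid leukocyte genes were up-regulated at C2 and none was down-regulated. Over all valid probes 28.1% passed in that comparison, and 15.3% were up-regulated. PTPRC, which encodes the pan-leukocyte antigen CD45, was above background on all 17 arrays, with means of 0.19 at NC1, 0.44 at C1 and 1.18 at C2. The macrophage gene CSF1R had means of 1.27, -1.06 and 0.8 and stood at -2.46 on C2 replicate 2, and the T cell gene CD3E was above background on no NC1 or C1 array and on 4 C2 arrays. Among the 4 C2 arrays with IL6 above background the order was not shared, since replicates 3 and 4 had the higher IL6 levels and the lower leukocyte sums. The endothelial sum on C2 replicates 1 to 5 was 6.84, 2.67, 9.89, 11.3 and 5.99, highest on replicates 3 and 4 and lowest on replicate 2. Within that list the mean level of KDR was -1.97 at C1 and 1.61 at C2, and that of VWF -1.55 and -1.06. The means of the others above background were lower at C2, with -2.96 and -3.66 for PECAM1, -1.08 and -1.86 for TEK, and -2.91 and -3.02 for TIE1. The part of leukocytes or endothelium in the IL6 level was not tested.

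**Figure D2:**
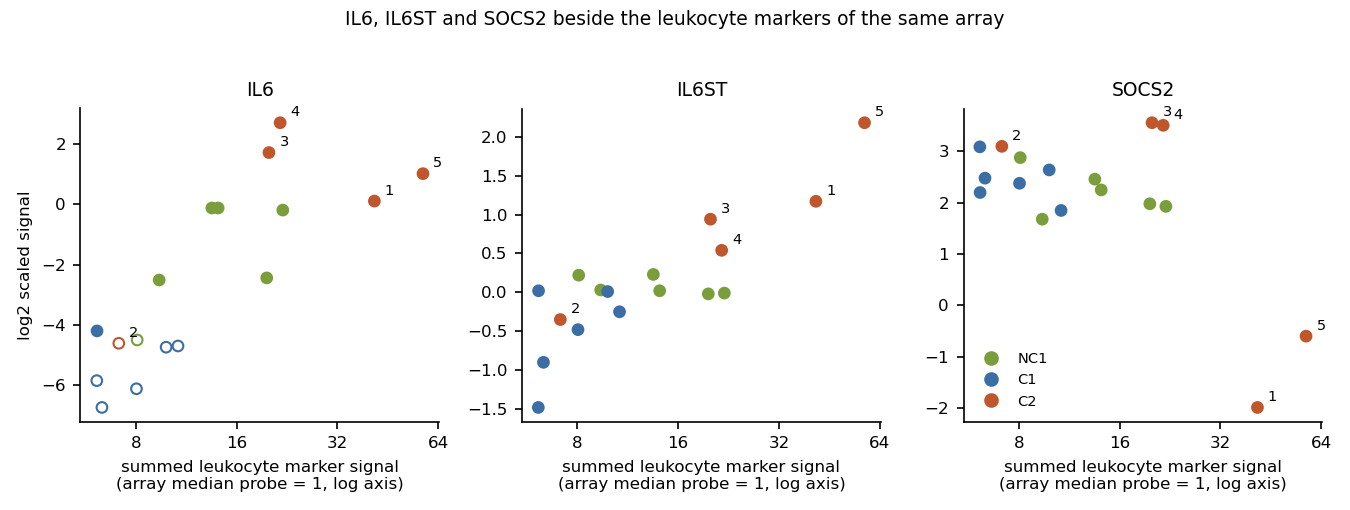
Log2 scaled signal of IL6, IL6ST and SOCS2 (vertical axes) against the summed signal of 12 leukocyte markers on the same array (horizontal axis, log scale, array median probe = 1). Points are the 17 arrays coloured by stage, open where the gene was not well above background, with C2 replicates numbered. C2 replicate 2, with a sum of 7.12, lies near the C1 arrays for IL6 and IL6ST, and C2 replicates 1 and 5, with the highest sums, have the lowest SOCS2 levels.

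LIF, a ligand known for its role in implantation, was at the limit of detection. It was well above background on 1 NC1 array, replicate 5, at -2.02, and on no C1 or C2 array. Its levels ranged from -6.81 to -3.97 on the arrays of C1 and C2, where no order can be read and no fold is given. A difference between stages was not detectable at this signal.

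LIFR encodes the chain that binds LIF and pairs with gp130. By probe A_73_100006 its levels at C2 were 3.72, 4.73, 4.6, 4.63 and 3.33 for replicates 1 to 5. The lowest, median and highest levels were 3.25, 3.53 and 3.78 at C1 and 3.05, 3.61 and 4.09 at NC1. Replicates 2, 3 and 4 of C2 exceeded all NC1 and C1 arrays, and replicates 1 and 5 lay within their range. The mean of C2 exceeded that of C1 by 0.69 ± 0.25 (SE), with an adjusted p of 0.0339, and that of NC1 by 0.62 ± 0.25 (SE), with an adjusted p of 0.0558, neither of which passed. Both passed without C2 replicate 5, with 0.91 and an adjusted p of 0.00436 against C1 and 0.84 and 0.00781 against NC1. NC1 and C1 differed by -0.07, with a 95% interval from -0.57 to 0.43. The second LIFR probe, A_73_101806, was not valid, with 1 NC1, 4 C1 and 2 C2 arrays well above background and levels from -4.79 to -2.06.

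IL6R encodes the chain that binds IL6 itself. Its C2 levels were 3.27, 3.79, 3.81, 2.55 and 3.44, all below the lowest C1 level of 3.83. The C1 median and highest levels were 4.3 and 4.39, and the NC1 arrays spread from 2.82 to 4.25 with a median of 3.9. C2 minus C1 was -0.87 ± 0.26 (SE) on the log2 scale, with a 95% interval from -1.42 to -0.32. The adjusted p of 0.0127 missed the threshold, while the exact permutation test gave its smallest p, 0.00433. Of the valid probes, 21.6% had C2 and C1 arrays that did not overlap. Over the 30 alternatives the adjusted p ran from 0.00562 to 0.042 and passed in 5, among them 75th percentile scaling with 0.00667 and quantile normalization with 0.00637. NC1 lay between the other stages and overlapped with both, and C1 exceeded NC1 on 6 of 6 slides, by 0.12 to 1.42, with an adjusted p of 0.551.

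IL6ST encodes gp130, the chain that all receptors of the family share. The C2 levels were 1.17, -0.35, 0.94, 0.54 and 2.18. At C1 the lowest, median and highest levels were -1.48, -0.37 and 0.02, and at NC1 they were -0.02, 0.02 and 0.23. Replicates 1, 3, 4 and 5 of C2 lay above all arrays of NC1 and C1, and replicate 2 lay below all NC1 arrays and within C1. The NC1 arrays were close together, with an SD of 0.12. IL6ST was up-regulated at C2 in comparison to C1 by 1.41 ± 0.34 (SE), a 2.66-fold difference with an adjusted p of 0.00305, and the exact permutation test gave p = 0.0173. C2 was the higher on 4 of 5 slides, and the difference was 1.58 on one scan day and 1.19 on the other. In comparison to NC1 the difference of 0.82 ± 0.34 (SE) did not pass, with an adjusted p of 0.065, and it was 1.13 with an adjusted p of 0.00636 without C2 replicate 2. When the close C2 replicates were averaged, 1 with 5 and 3 with 4, the difference from C1 was 1.2 with an adjusted p of 0.0183, which does not pass. Within C2, replicate 2 had the lowest and replicate 5 the highest value of both IL6ST and the leukocyte sum, and the part of leukocytes was not tested here either.

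OSMR encodes the chain that oncostatin M uses. Its C2 levels were 4.68, 3.79, 4.09, 3.39 and 4.68, with an SD of 0.57 beside 0.32 at C1. The levels ran from 3.41 to 4.26 at C1 and from 3.79 to 4.61 at NC1. Means were 4.12, 4.02 and 4.13 at NC1, C1 and C2. The difference of C2 from C1 was 0.1, with a 95% interval from -0.4 to 0.61, and its adjusted p was 0.758. It was 0.47 on one scan day and -0.39 on the other. Replicates 1 and 5 had the highest OSMR levels of C2, whereas they had the lowest LIFR levels.

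JAK2 encodes a kinase that binds gp130. The C2 levels were 1.13, 0.3, 1.32, 1.19 and 1.09, beside 0.15 to 1.17 at C1 and 0.57 to 1.41 at NC1. The 3 stages overlapped, and no contrast passed. C2 minus C1 was 0.32, with a 95% interval from -0.15 to 0.78 and an adjusted p of 0.274. C2 replicate 2 was again the lowest of its stage.

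STAT3 encodes the transcription factor on which gp130 signals converge. By the brighter probe, A_73_104691, the C2 levels were 4.38, 3.47, 3.99, 4.79 and 4.3. The lowest, median and highest levels were 2.03, 2.74 and 3.01 at C1 and 2.26, 3.06 and 3.64 at NC1. Every C2 array lay above every C1 array, and 4 of the 5 also above every NC1 array, C2 replicate 2 being the exception. STAT3 was up-regulated at C2 by 1.54 ± 0.28 (SE) in comparison to C1, a 2.91-fold difference with an adjusted p of 0.000204 and an exact permutation p of 0.00433. C2 was the higher on 5 of 5 slides, by 0.45 to 2.46, and the difference was 1.19 and 1.96 on the 2 scan days. In comparison to NC1 it was up-regulated by 1.15 ± 0.28 (SE), or 2.23-fold, with an adjusted p of 0.00263. With the slide as a block the latter was 1.11 with an adjusted p of 0.0113, and with close C2 replicates averaged it was 1.04 with 0.0187, neither of which passes. C1 and NC1 differed by -0.39 ± 0.26 (SE), with an adjusted p of 0.685.

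The second STAT3 probe, A_73_115616, moved the same way. Its C2 levels were 0.01, -0.88, -1.7, -1.71 and -0.54, against a lowest, median and highest level of -3.02, -2.11 and -1.72 at C1 and of -2.34, -1.72 and -1.06 at NC1. All C2 arrays lay above all C1 arrays, although replicates 3 and 4 did so narrowly. C2 exceeded C1 by 1.24 ± 0.32 (SE), with an adjusted p of 0.00503, and NC1 by 0.78 ± 0.32 (SE), with an adjusted p of 0.0631, which did not pass. The first of these lost its call without C1 replicate 1 or 4 and without C2 replicate 1 or 5, where the adjusted p was 0.0101, 0.0139, 0.0164 and 0.0146. It was 0.62 with an adjusted p of 0.018 under normexp background correction and 1.12 with 0.0207 under 75th percentile scaling. The 2 probes ordered the C2 arrays differently, since replicate 4 was the highest by the first and the lowest by the second.

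SOCS2 encodes an inhibitor best known for restraining growth hormone signalling. It split the C2 arrays, with levels of -1.99, 3.1, 3.56, 3.51 and -0.6. At C1 the lowest, median and highest levels were 1.85, 2.43 and 3.09, and at NC1 they were 1.68, 2.11 and 2.88. Replicates 2, 3 and 4 of C2 exceeded all NC1 and C1 arrays, although replicate 2 did so narrowly, at 3.1 beside 3.09. Replicates 1 and 5 fell short of all NC1 and C1 arrays. The SD of SOCS2 within C2 was 2.62, beside 0.42 at C1, and 0.851% of the valid probes had a C2 SD at least as large. The mean difference of -0.92 ± 0.78 (SE) from C1 thus describes neither set of arrays, and its adjusted p was 0.364. On one scan day, which held replicates 1, 2 and 5, C2 minus C1 was -2.36, and on the other, with replicates 3 and 4, it was 1.18. Replicates 1 and 5 also had the highest leukocyte sums, 41.3 and 57.7, and the lowest granulosa and cumulus sums, 1300.0 and 1220.0, against 2910.0 to 5280.0 for the other C2 arrays. The part of these in the split was not tested. LIFR split the same C2 arrays, within a much smaller range.

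SOCS3 encodes the inhibitor that binds gp130 and is itself induced by STAT3. Its C2 levels were -0.5, -1.09, -1.06, -0.87 and -0.64, beside -1.0 to -0.2 at C1 and -1.08 to -0.62 at NC1. All 17 arrays lay within 0.9 of each other, the smallest range among the 12 probes. C2 minus C1 was -0.3, with a 95% interval from -0.67 to 0.07 and an adjusted p of 0.182, and C2 minus NC1 was 0.01, with an interval from -0.36 to 0.38. C1 exceeded NC1 by 0.31 ± 0.17 (SE), with an adjusted p of 0.582, and no contrast passed.

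**Figure D3:**
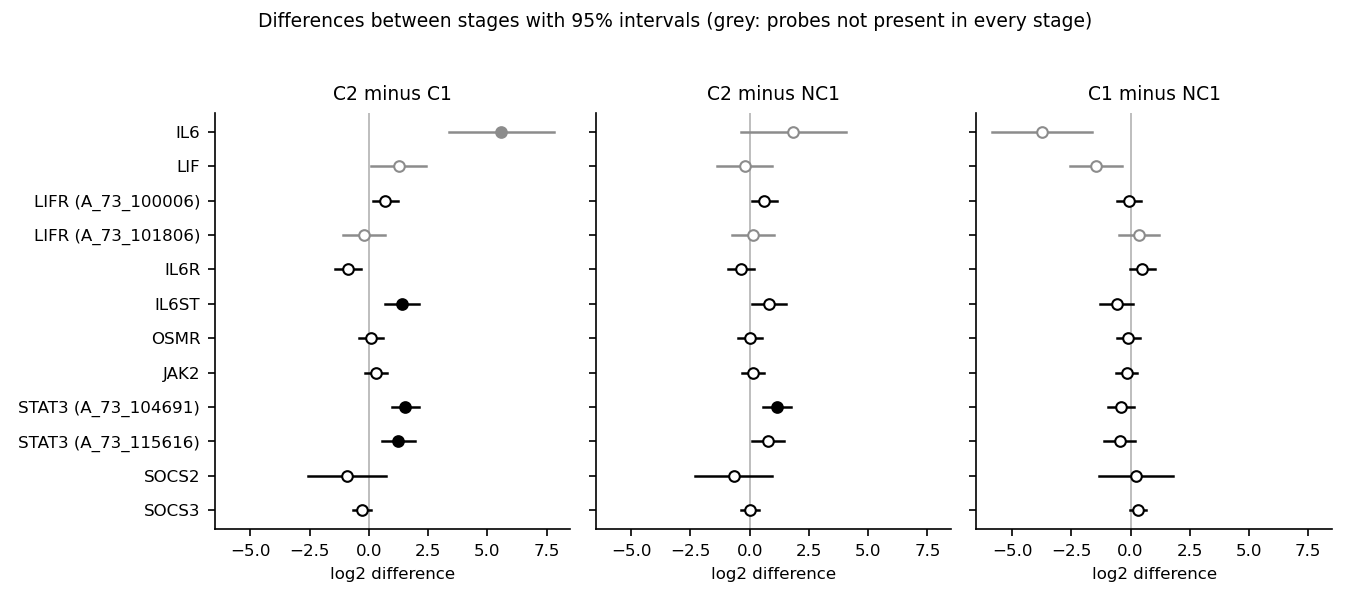
Fitted log2 difference (horizontal axis) between the stages for each of the 12 probes, with 95% intervals. Filled points passed an adjusted p under 0.01, and grey marks the probes that were not valid in every stage, taken from the fit without a filter. IL6, IL6ST and both STAT3 probes pass for C2 against C1, 1 STAT3 probe for C2 against NC1, and none for C1 against NC1.

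Of 61 other genes of the pathway, 42 had a valid probe. At C2, 9 of the 42 rose and 4 fell against C1, which is 31.0% beside 28.1% of all valid probes, with a median difference of 0.31. Against NC1 11 rose and 4 fell, or 35.7%, beside the same 28.1%. Between C1 and NC1 none passed by limma, and 3 had an unadjusted p under 0.05. The 28 differences called for these genes kept their direction under each of the 30 alternatives run. Of 10 further ligands and 6 further receptors, 3 each were valid and none passed against C1. EBI3, a subunit of dimeric cytokines, was the only one of the 3 valid ligands to pass against NC1, by 0.68 with an adjusted p of 0.0042.

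A further 18 pathway genes had a probe that was not valid, and were read in the fit without a filter, as IL6 was. Of these, 4 passed against C1, beside 21.2% of all probes, and 4 against NC1, beside 20.5%, all higher at C2. Both shares include the valid probes, so they are not a like background for these 18 genes. IL11, a ligand that signals through gp130, was above background on 4 NC1, 6 C1 and 5 C2 arrays, and exceeded C1 by 0.81 ± 0.21 (SE) with an adjusted p of 0.00611 and NC1 by 1.35 ± 0.21 (SE) with an adjusted p of 6.91e-05. Its C2 arrays overlapped with neither stage. LEPR, the leptin receptor, was above background on 3 C2 arrays and on no NC1 or C1 array, with adjusted p-values of 0.000156 and 0.00202, and no fold is given. FGG, a fibrinogen chain listed as a STAT3 target, exceeded C1 by 4.43 ± 0.59 (SE) with an adjusted p of 1.48e-05, and passed against NC1 with 1.86e-06, where 2 of 6 arrays were above background. The fourth against C1 was CLCF1, a ligand above background on 1 C1 and 3 C2 arrays, with an adjusted p of 0.00837. Its C2 and C1 arrays overlapped. The fourth against NC1 was STAT6, above background on 1 NC1 and 4 C2 arrays, with 0.00297. The p-values of LEPR, CLCF1 and STAT6, and of FGG against NC1, rest largely on values at the background, which have no order. EBI3, IL11, LEPR, FGG, CLCF1 and STAT6 are named after their values were seen.

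Among the 7 valid kinases and STATs, 2 rose and 1 fell at C2 against C1, or 42.9% beside 28.1% of all valid probes. STAT4, the transducer best known for interleukin 12 signals, had a mean of 6.26 ± 0.87 (SD, n = 5) at C2 and of -0.93 ± 0.69 (SD, n = 6) at C1, and rose by 7.18 ± 0.36 (SE) with an adjusted p of 8.21e-11. JAK3, the kinase that pairs with the common cytokine receptor gamma chain, fell from 8.03 ± 0.3 to 4.9 ± 0.31, a difference of -3.14 ± 0.21 (SE) with an adjusted p of 2.33e-09. JAK1, another kinase that binds gp130, rose from 5.32 ± 0.31 to 6.67 ± 0.47, by 1.35 ± 0.23 (SE) with an adjusted p of 0.000142. None of the 3 had a C2 array within the range of the C1 or NC1 arrays. Of all valid probes, 21.6% had C2 and C1 arrays that did not overlap.

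Among the 12 valid feedback and phosphatase genes, 3 rose and 1 fell against C1, or 33.3% beside 28.1% of all valid probes. SOCS1, an inhibitor of JAK kinases, was the one that fell, with a mean of 3.24 ± 0.58 (SD, n = 5) against 5.38 ± 0.6 (SD, n = 6), a difference of -2.14 ± 0.3 (SE) with an adjusted p of 1.91e-05. PTPN2, a phosphatase of JAKs and STATs, rose by 1.32 ± 0.37 (SE) with an adjusted p of 0.00835, and SOCS5 by 0.66 ± 0.19 (SE) with an adjusted p of 0.0084. The call was kept in 9 of the 30 alternatives for PTPN2 and in 15 for SOCS5. Among 5 valid shedding and adapter genes 1 passed, or 20.0%, which was GRB2, an adapter that leads to RAS. GRB2 rose by 0.91 ± 0.25 (SE) with an adjusted p of 0.00789 and kept its call in 14 of the 30 alternatives.

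Of the 12 valid genes listed as known STAT3 targets, 3 rose and 2 fell against C1, or 41.7% beside 28.1% of all valid probes. Their median difference was 0.0, while all valid probes had 0.02. TNFAIP6, which encodes a protein that crosslinks hyaluronan in the expanding cumulus and also stands in the expanded cumulus list, rose by 6.63 ± 0.73 (SE) with an adjusted p of 1.11e-06. TIMP1, an inhibitor of matrix metalloproteinases, rose by 4.59 ± 0.53 (SE) with an adjusted p of 1.9e-06. MYC, which promotes cell growth, had a mean of 2.14 ± 2.07 (SD, n = 5) against 6.92 ± 0.38 (SD, n = 6), a difference of -4.78 ± 0.62 (SE) with an adjusted p of 7.89e-06. The list moved in both directions, and 7 of its 12 valid genes did not pass. CEBPD had a second valid probe on the other side of the threshold from the brighter one that is counted here.

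**Figure D4:**
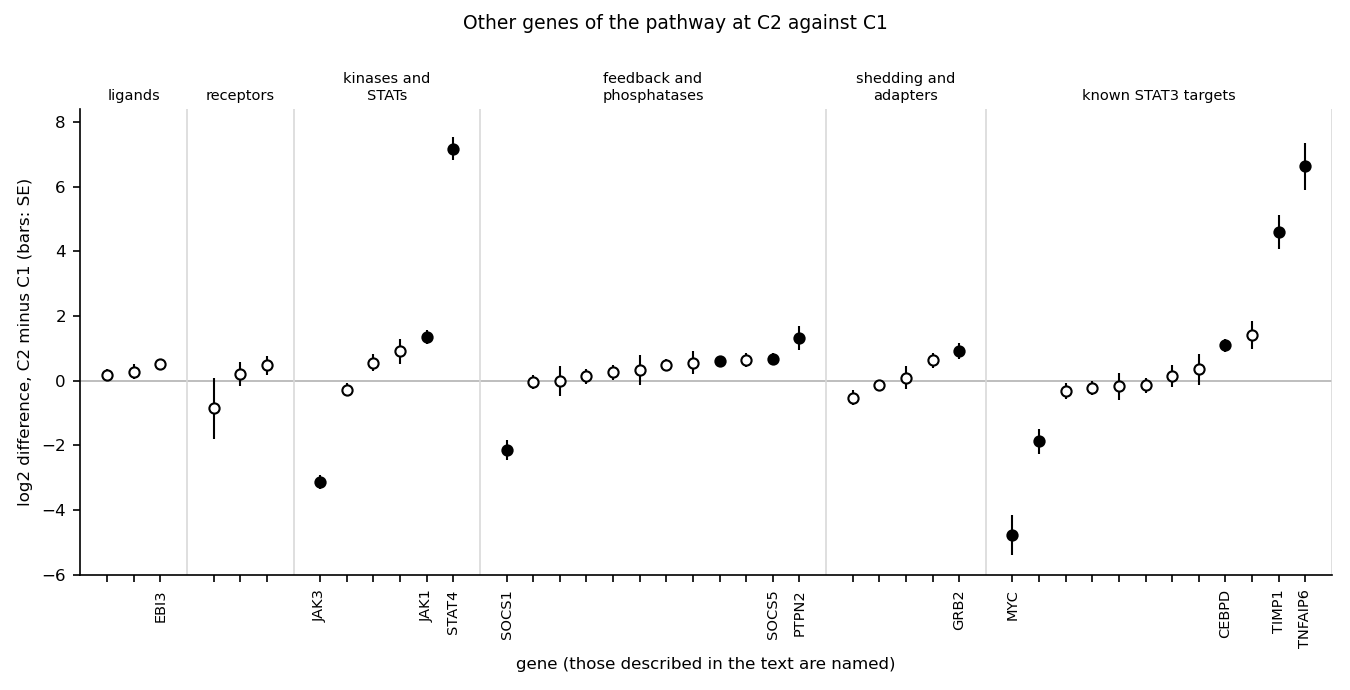
Fitted log2 difference of C2 from C1 (vertical axis, bars are SE) for 41 of the 42 valid genes of the pathway outside the family, grouped by role and ordered by size (horizontal axis), with the genes described in the text named. Filled points passed an adjusted p under 0.01. Most points lie near 0, with STAT4 at 7.18, TNFAIP6 at 6.63 and TIMP1 at 4.59 above and MYC at -4.78 and JAK3 at -3.14 below.

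Genes whose profile over the 17 arrays was most like that of a family gene were found for the 3 valid genes with the highest moderated F, by the root mean square (RMS) difference of profiles centred on their own mean. For STAT3 these were SDC4, a cell surface proteoglycan, at 0.296, TPM4, a tropomyosin, at 0.336 and CHP at 0.337 on the log2 scale, while the median over the 10848 probes compared was 0.851. For IL6ST they were DENND1C at 0.43, PSCD4 at 0.452 and FAM77C at 0.466, beside a median of 0.918. For IL6R they included ZBTB4 at 0.34 and IFT81 at 0.353, beside a median of 0.739. The likeness is a description over arrays that share their stages.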

How the data were processed

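RNA of cumulus cells of 17 cattle was labelled from 0.35 μg with Cy3 and hybridised to Agilent bovine arrays. The authors deposited linear spot intensity values, background-corrected by Feature Extraction 10.5.1.1 but unscaled, and a table of log2 values scaled to each array's median. The scanner marked no spot as saturated. Samples were grouped by the stage in their labels. From the spots, log2 intensity was averaged per probe, leaving out outlying and non-uniform spots, and the array median was subtracted. The deposited log2 values differed by less than 2e-06 from these for 99% of the probes of each array. A probe was present when at least 50% of its spots were well above background, uniform and unsaturated. The 13865 probes present on 80% of the arrays of each stage were fitted in limma 3.58.1 (R 4.3.3), 3 stages in 1 fit, with Benjamini-Hochberg adjustment and a threshold of 0.01. Probes dim in a stage were read from a fit without this filter. A gene was read from its brightest valid probe. The exact permutation tests, 2-sided, used scipy 1.17.1 in Python 3.11.15. The fit was tested on simulated data. The number of arrays limits the precision.

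Symbols were the gene names of the array files where these were neither LOC numbers nor accessions. Otherwise they came from the RefSeq table of gene names through the accession, or from the description. The accession of 3524 probes matched the RefSeq table. No genome build is given in the sources used here, so no coordinates are printed. The family and all lists were chosen with earlier results of these data known. The text names every family gene, up to 3 genes of each pathway group with the largest called change between C2 and C1, any called between C1 and NC1, and 3 genes of like profile for each of 3 family genes, apart from items that are not reported here. Alternatives were other scalings (75th percentile, quantile), normexp background correction with an offset of 50, the authors' table, other filters, slide, scan day or replicate as a block, array weights, an intensity trend with robust spread, 2 stages alone, any valid probe of a gene, and leaving out each array. Averaging close C2 replicates and limits for dim arrays were added after the data were seen. Arrays of other species were not analysed here.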

Additional observations from a re-analysis of the deposited data

Results flagged for a closer look

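Among 36 groups of arrays, 1 for each probe and stage, 3 held an array that stood apart from the rest by Dixon's criterion, which chance meets in about 1 of 20 groups. IL6R at C1 was 3.83 on replicate 5, where the nearest other array was at 4.24. OSMR was 3.41 on the same array, with 3.99 the nearest. JAK2 at C2 was 0.3 on replicate 2, with 1.09 the nearest. The SOCS2 levels of C2, which fall into 2 sets, do not meet this criterion, because replicates 1 and 5 are low together.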

How the results depend on the processing

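Of the 36 differences of a probe between 2 stages, none that passed in either fit changed its direction under the alternatives run. Against C1, 1 of the valid family genes passed in place of 2 with 2 stages alone and with close C2 replicates averaged. Against NC1, 0 passed in place of 1 with the slide as a block, the replicate block or close C2 replicates averaged, and 2 with array weights and without C2 replicate 2 or 5. By the moderated F, 1 gene passed in place of 2 with 75th percentile scaling, normexp correction, slide, scan day or replicate as a block, and close C2 replicates averaged. Leaving out 1 array gave 2 to 3 genes against C1, 1 to 2 against NC1 and 1 to 2 by the F, where 1 remained after leaving out any NC1 array, C1 replicate 2, 4, 5 or 6, or C2 replicate 1, 3 or 4. Of the other pathway genes, 9 passed against NC1 in place of 15 with slide or replicate as a block and with 2 stages alone, and 9 to 15 when 1 array was left out, 9 being without NC1 replicate 4. Between C1 and NC1, 8 of all valid probes passed, but 25 without a filter, 2 with the slide as a block, 0 with the replicate block, 233 with array weights, 77 with 2 stages alone and 1 to 19 when 1 array was left out, the most without C2 replicate 2. The cause of these changes was not tested.

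IL6 passed against C1 in all 29 alternatives, with differences from 2.35 to 6.79, and the brighter STAT3 probe in all 30, with 1.39 to 1.72. The IL6ST difference from C1 passed in 28 of 30, failing with 2 stages alone, where its adjusted p was 0.017, and with close C2 replicates averaged. The second STAT3 probe passed in 22 of 30, also failing with 2 stages alone, with 0.0112, and with close C2 replicates averaged, with 0.0104. The IL6 difference of C1 from NC1 passed only with array weights, at -4.0 with an adjusted p of 0.0019. Scaling to the 75th percentile moved the median C2 minus C1 difference of all probes from 0.02 to -0.11, and that of C2 minus NC1 from 0.11 to -0.04. Normexp correction moved that of C1 minus NC1 from 0.05 to 0.2.

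The replicate numbers do not pair the samples, since animals differed between stages. The correlation of deviations between arrays of the same number lay between -0.317 and 0.252, above 0.1 in 4 of 16 pairs. With the replicate block, the difference of STAT3 between C2 and NC1 was 1.11, with an adjusted p of 0.0134, and the other called differences of family probes between 2 stages were kept. Signal limits LIF at every stage and IL6 at C1, where arrays near background have no order.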
